A study of Danio rerio with 13 samples.

Results

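Muscle of zebrafish (Danio rerio) that carry 1 mutant copy of the telomerase gene, tert+/-, was compared with muscle of wild types across all genes. The comparison used the 5 libraries whose strain label gave tert+/- and the 5 whose label gave wild type, 10 of the 13 in the series, and the remaining 3, from tert-/- fish, entered the fits only to share the estimate of the spread. All of these fish were AB strain males aged 3 months. The tert+/- fish carried the tert hu3430 allele on 1 chromosome and a wild type copy on the other, in every cell of the body, and the wild types carried no mutant copy and no other agent or allele by the labels. The sources used here do not give whether the fish were siblings, how telomere length stood in them or which muscle was taken. The p-values set a difference between genotypes against the spread between these libraries. The comparison asks what loss of 1 telomerase copy changes in a tissue of young adults.

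The gene tert encodes the reverse transcriptase of telomerase, which adds telomere repeats to chromosome ends with the help of an RNA template and of the dyskerin complex. Most skeletal muscle cells are multinucleate fibres that no longer divide, and new nuclei come from satellite cells. Zebrafish without telomerase have short telomeres and are used as a model of early ageing.

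Genes of fast muscle fibres held 30.8 to 52.97% of counts in tert+/- libraries and 47.4 to 54.2% in wild types. Testis transcripts were most abundant in 1 library of each genotype and were present at low levels in some others. The germ cell helicase gene ddx4 stood at 180 CPM (counts scaled to 1 M per library, here from 2692 counts) in tert+/- replicate 1 and at 116 CPM (1233 counts) in wild type replicate 5, against at most 3.71 CPM in the other 8. Those 2 libraries were also the shallowest of the 10, with totals of 14.9 M and 10.6 M counts, against 27.6 M to 47.5 M in the other 8. Fits were made with all libraries (5 against 5) and without the libraries over 50 CPM of ddx4 (4 against 4). The latter kept 2 tert-/- libraries in the fit, and the sets are called all 10 and the other 8. Many results are given for both sets. Fold changes of some genes and counts of some lists are given only over the other 8, and some fold changes only over all 10. Levels are CPM scaled by the trimmed mean of M-values (TMM) over all libraries unless another scale is named. None of 9 measures of the libraries passed a test between the genotypes (two-sided exact permutation tests, p = 0.27 to 0.929 over all 10, adjusted p of at least 0.768, where 0.00794 is the smallest p the design allows). Over the other 8 the p-values were 0.314 to 0.943 by the same exact test, where the smallest possible is 0.0286. A measure that differed alone could not pass after adjustment over the 9 in either set. These tests therefore do not show that the libraries were alike. In bulk muscle, fewer cells of a type and less RNA per cell cannot be told apart.

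The targeted transcript, TERT (ENSDARG00000042637), was counted in every library. It stood at 7.82, 5.68, 6.66, 6.70 and 6.35 CPM in tert+/- replicates 1 to 5, against 9.73, 4.90, 5.38, 5.86 and 6.89 CPM in wild type replicates 1 to 5. The tert+/- values lay inside the wild type range. The log2 fold change (tert+/- over wild type, here and throughout) was 0.02 ± 0.28 (standard error, SE) over all 10 and −0.001 ± 0.23 over the other 8. A nonsense allele can still be transcribed, so this level does not check the genotype labels. Of 32 tested genes for telomerase and telomere maintenance, 4 had an unadjusted p under 0.05 over the other 8, all with higher fitted levels. Among all genes tested there, 5.16% were higher at that p. RUVBL2, NHP2, GAR1 and DKC1 encode the assembly helicase and the dyskerin complex that hold telomerase RNA and also the guide RNAs of ribosome maturation. The median log2 fold change of the list was 0.02 over the other 8 and 0.08 over all 10. GAR1 stood at 12.1, 10.9, 13.5, 16.0 and 17.0 CPM in tert+/- replicates 1 to 5, against 10.3, 8.60, 6.55, 9.96 and 17.1 CPM in wild type replicates 1 to 5. Apart from wild type replicate 5, which holds testis transcripts, every wild type lay below every tert+/- library. Over all 10 no member had p under 0.05, and without the libraries over 1 CPM of ddx4 none was higher at that p and 1 was lower.

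By edgeR's quasi-likelihood test with Benjamini-Hochberg adjustment, 0 of 19407 genes were called over all 10 (background 0%), with a lowest adjusted p of 1. Before adjustment, p was under 0.05 for 557 genes (2.87%), against 970 expected by chance alone, and fitted levels in tert+/- were higher for 225 of them (1.16%) and lower for 332 (1.71%). The groups did not overlap at 49 genes that were higher (0.252%) and at 66 that were lower (0.34%). Over the other 8, 0 of 17970 genes were called, with a lowest adjusted p of 0.552. Before adjustment, p was under 0.05 for 1610 genes there (8.96%), against 898 expected, of which 928 were higher (5.16%) and 682 lower (3.8%). The groups did not overlap at 454 higher (2.53%) and 428 lower genes (2.38%). Fold changes had a median SE of 0.40 over all 10 and 0.30 over the other 8. Of all tested genes, 50.2% had a fitted level above that of wild type and 49.8% below over all 10, and 50.4% and 49.6% over the other 8. Limma-voom with sample quality weights called 0 genes in both sets, and DESeq2 called 0 over all 10 and 38 over the other 8. No gene passed edgeR's adjustment, so that "higher" and "lower" describe fitted levels, and "p under 0.05" counts unadjusted values. Genes given with a fold change and its SE had adjusted p = 1 over all 10 by edgeR, and adjusted p = 0.552 over the other 8, apart from TERT at 0.999.

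**Figure D1:**
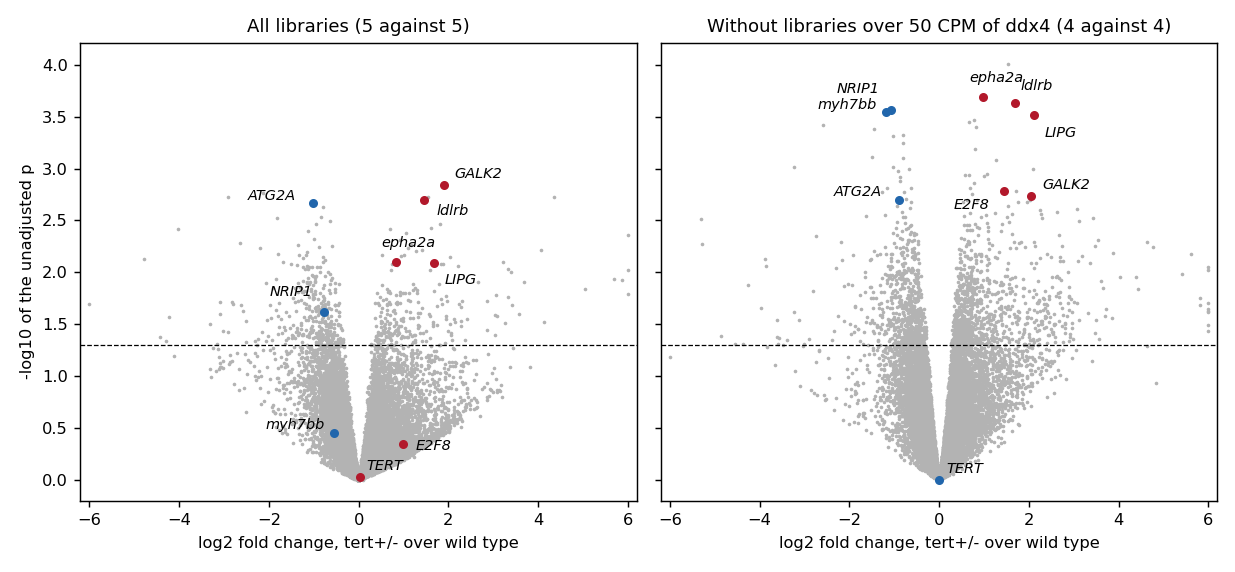
Log2 fold change of tert+/- over wild type (x axis, values beyond 6 drawn at the edge) against the negative log10 of edgeR's unadjusted p (y axis) for each tested gene, with all libraries (left) and without the libraries over 50 CPM of ddx4 (right). The dashed line marks an unadjusted p of 0.05, which 557 genes pass on the left and 1610 on the right, and coloured points are named genes.

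Over the other 8 the cholesterol genes had the highest share of members at p under 0.05 among the 53 lists. There, 30 of 35 tested members of cholesterol synthesis and uptake were higher, 17 at p under 0.05 (background 5.16%) and none lower at that p, with 9 whose groups did not overlap (background 2.53%) and a median log2 fold change of 0.60, against 0.00 for all genes. Over all 10, 27 of 36 were higher, 7 at p under 0.05 (background 1.16%), with a median of 0.34. Without tert+/- replicate 3 the medians were 0.39 and 0.22. Cells make cholesterol in the endoplasmic reticulum and take it up as lipoprotein through receptors, and the transcription factor gene srebf2 drives both arms when sterols are scarce. The squalene epoxidase gene SQLE, an early oxygen-requiring step, stood at 0.729, 2.02, 4.86, 1.26 and 2.28 CPM in tert+/- replicates 1 to 5, against 0.587, 0.739, 1.04, 0.718 and 0.530 CPM in wild type replicates 1 to 5. The highest library was tert+/- replicate 3, and the groups overlapped through tert+/- replicate 1. For SQLE the log2 fold change was 1.61 ± 0.45 over all 10 and 1.76 ± 0.43 over the other 8. The lipoprotein receptor gene ldlrb stood at 2.25, 4.34, 2.79, 2.18 and 2.79 CPM in tert+/-, against 0.932, 0.554, 1.24, 1.05 and 1.502 CPM in wild type, with no overlap (1.45 ± 0.37 over all 10, 1.69 ± 0.30 over the other 8). Members at p under 0.05 over the other 8, chosen here for that p, also included EBP, insig1, ldlra, ACAT2, srebf2, TM7SF2, MVD, a pair of NPC2 genes, HSD17B7, PMVK, CYP51A1 and LSS, with log2 fold changes of 0.39 (srebf2) to 1.38 (NPC2). Summed over the list, tert+/- replicates 2 to 5 held 204 to 270 CPM against 152 to 195 CPM in wild type replicates 1 to 4, and tert+/- replicate 1 held 174 CPM, inside the wild type range.

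Genes that handle other lipids did not share 1 direction. The endothelial lipase gene LIPG, whose product releases fatty acids from lipoproteins, stood at 4.77, 22.7, 7.48, 14.4 and 10.6 CPM in tert+/- replicates 1 to 5, against 2.76, 2.99, 2.61, 4.52 and 6.01 CPM in wild type replicates 1 to 5. The groups overlapped only through the libraries with testis transcripts. The log2 fold change of LIPG was 1.68 ± 0.52 over all 10 and 2.11 ± 0.39 over the other 8. The mitochondrial carrier gene ucp3, which in mammals is switched on in muscle by fatty acids and fasting, stood at 60.4, 248, 111, 226 and 118 CPM in tert+/-, against 90.4, 26.8, 62.5, 99.5 and 55.4 CPM in wild type. Its log2 fold change over the other 8 was 1.34 ± 0.39, with no overlap. In contrast, CROT, which prepares chain-shortened fatty acids for leaving peroxisomes, had lower levels (6.34, 8.68, 5.71 and 6.54 CPM in tert+/- replicates 2 to 5, against 20.0, 10.6, 12.3 and 10.4 CPM in wild type replicates 1 to 4). For CROT it was −0.94 ± 0.23 over the other 8. Of the fatty acid synthesis genes, ACLY (ENSDARG00000055652), which makes cytosolic acetyl-CoA from citrate, was lower by −0.64 ± 0.16 and FASN higher by 0.70 ± 0.23 over the other 8. Wild type replicate 5 stood apart in both, with the lowest ACLY (11.9 CPM) and the highest FASN (19.8 CPM) of the wild types. Of 60 genes for fatty acid uptake and oxidation, 5 were higher and 2 lower at p under 0.05 over the other 8 (backgrounds 5.16% and 3.8%), and the median was −0.05.

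**Figure D2:**
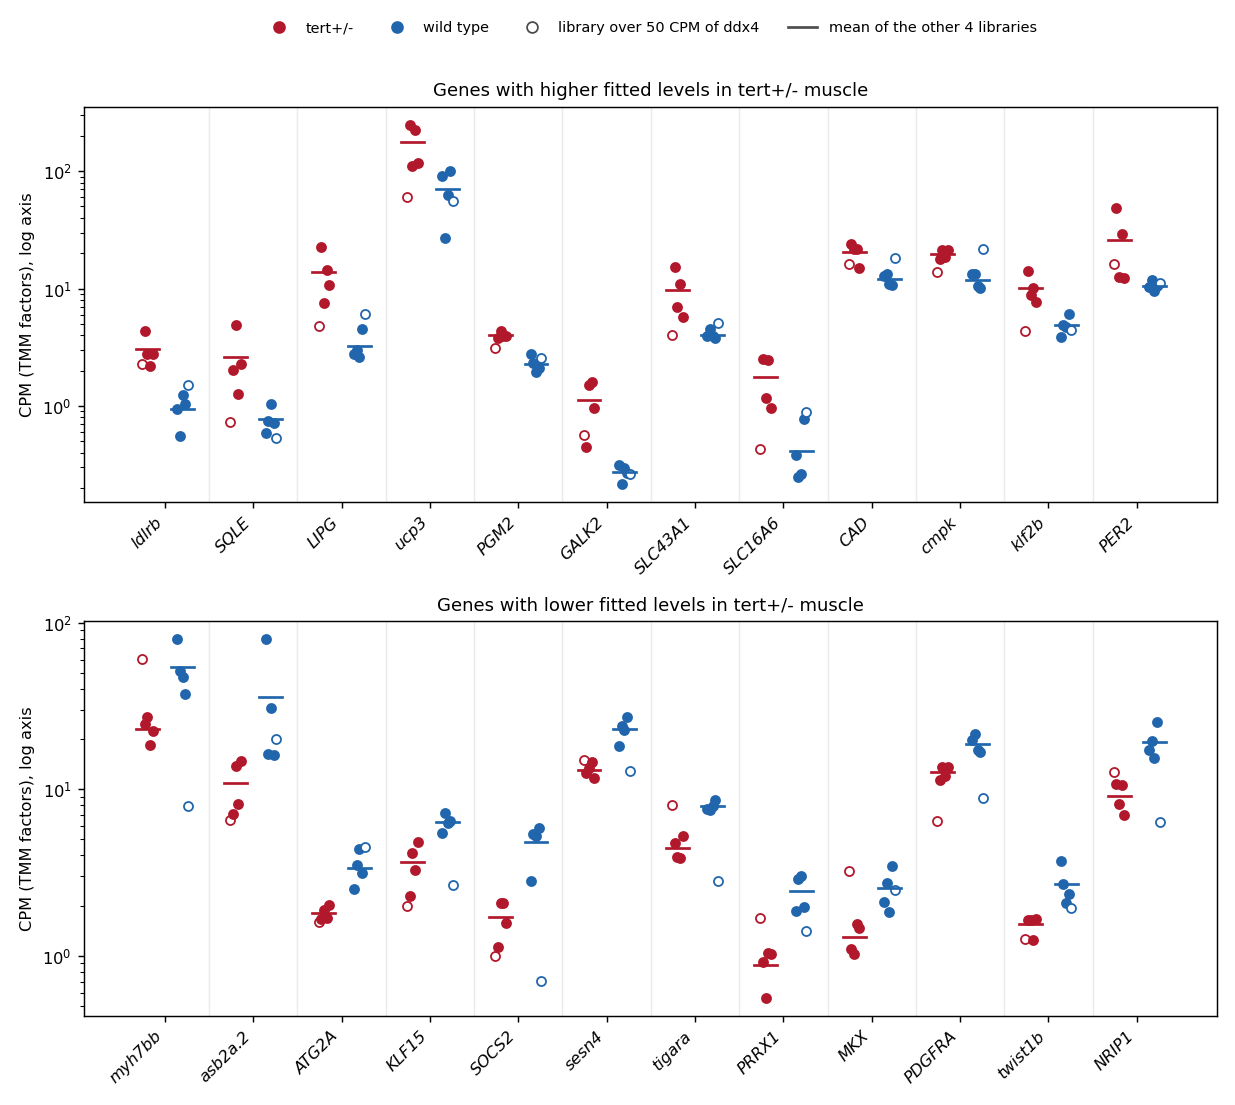
Level of 24 named genes in each library, as CPM with TMM factors on a log axis, with tert+/- in red at the left of each gene and wild type in blue at its right. Open circles are the libraries over 50 CPM of ddx4 and bars are means of the other 4 libraries of a genotype. In the upper genes the filled points of tert+/- lie above those of wild type, and in the lower genes they lie below. The genes were chosen from these same libraries for small p, many also for no overlap, so the choice set much of this separation.

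Sugar, nucleotide and amino acid genes included several of the smallest p-values. The phosphopentomutase gene PGM2 stood at 3.11, 3.78, 4.34, 3.93 and 3.94 CPM in tert+/- replicates 1 to 5, against 2.76, 2.34, 1.96, 2.09 and 2.56 CPM in wild type replicates 1 to 5, with no overlap (0.71 ± 0.20 over all 10, and 0.82 ± 0.16 over the other 8). The galactosamine kinase gene GALK2 had low levels, of 0.446 to 1.61 CPM in tert+/- against 0.216 to 0.310 CPM in wild type, again with no overlap (1.89 ± 0.46 over all 10). Over the other 8 its log2 fold change was 1.845 to 2.293 with each library left out in turn. Of 68 genes of glycolysis and glycogen, 3 were higher and 1 lower at p under 0.05 over the other 8 (backgrounds 5.16% and 3.8%), so that PGM2 did not stand for its list, whose median was 0.05. TIGAR proteins lower fructose 2,6-bisphosphate and slow glycolysis, and PFKFB4 makes and removes the same molecule. The TIGAR gene tigara was lower over the other 8 (4.76, 3.91, 3.86 and 5.26 CPM in tert+/- replicates 2 to 5, against 7.49 to 8.58 CPM in wild type replicates 1 to 4, −0.81 ± 0.17). With all 10 its log2 fold change was −0.42 ± 0.36, with 8.08 CPM in tert+/- replicate 1 and 2.83 CPM in wild type replicate 5. PFKFB4 was higher in the fit (1.48 ± 0.47), with 36.8 CPM in tert+/- replicate 2 against at most 12.5 CPM in any other library, and the log2 fold change was 0.68 without it.

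The pyrimidine enzyme genes CAD, which starts de novo synthesis, and cmpk, a nucleoside monophosphate kinase, were higher over the other 8. CAD stood at 24.1, 21.8, 21.6 and 14.8 CPM in tert+/- replicates 2 to 5, against 12.9, 13.3, 10.9 and 10.8 CPM in wild type replicates 1 to 4 (0.80 ± 0.17). The values of cmpk were 18.0, 21.1, 18.7 and 21.2 CPM in tert+/- and 13.2, 13.2, 10.5 and 10.1 CPM in wild type in the same libraries (0.77 ± 0.15). Both genes overlapped once the libraries with testis transcripts were counted, with 16.2 and 13.8 CPM in tert+/- replicate 1 and 18.2 and 21.9 CPM in wild type replicate 5. Over all 10 the log2 fold changes of CAD and cmpk were 0.58 and 0.43. Of 50 tested genes for amino acid and ammonium transport, 8 were higher and 4 lower at p under 0.05 over the other 8 (backgrounds 5.16% and 3.8%). The median was 0.26, and 0.14 without tert+/- replicate 2. Over all 10, the counts were 4 and 2 of 55 (backgrounds 1.16% and 1.71%), with a median of 0.21. Both SLC43A1 (ENSDARG00000037393) and SLC43A2 (ENSDARG00000061120), transporters of large neutral amino acids, were higher. SLC43A1 stood at 4.04, 15.2, 7.01, 10.8 and 5.71 CPM in tert+/- replicates 1 to 5, against 3.93, 4.50, 3.91, 3.799 and 5.04 CPM in wild type replicates 1 to 5, with 1.02 ± 0.31 over all 10 and 1.27 ± 0.27 over the other 8. SLC43A2 stood at 2.95, 1.25, 6.45, 1.78 and 1.70 CPM in tert+/-, against 0.828, 0.431, 0.587, 0.538 and 1.502 CPM in wild type, and tert+/- replicate 3 lay far above the rest. Its log2 fold change over the other 8 was 2.24 ± 0.66, and 1.41 without that replicate. Their paralogs of the same symbols, ENSDARG00000037748 and ENSDARG00000036848, had log2 fold changes of −0.38 and 0.34 over all 10. The ammonium channel gene RHCG (ENSDARG00000100265), best known from the kidney and gill, had no overlap but rested on low levels, of 0.327 to 4.73 CPM in tert+/- and 0.0299 to 0.177 CPM in wild type. Its log2 fold change was 4.34 ± 1.07 over all 10 and 4.62 ± 1.38 over the other 8, and tert+/- replicate 3 was again the highest, without which these were 3.46 and 3.23. The monocarboxylate transporter gene SLC16A6 (ENSDARG00000102793), which in zebrafish carries ketone bodies out of the liver, was higher over the other 8 (2.08 ± 0.46), with 0.962 to 2.50 CPM in tert+/- and 0.246 to 0.778 CPM in wild type.

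Regulators that answer to hormones, fasting and daylight lay on both sides. The clock repressor gene PER2, which light induces directly in zebrafish tissues, stood at 16.2, 48.8, 12.6, 29.2 and 12.3 CPM in tert+/- replicates 1 to 5, against 10.2, 11.9, 9.62, 10.4 and 11.2 CPM in wild type replicates 1 to 5. All tert+/- libraries lay above all wild types, and they varied among themselves far more (SD 15.6 against 0.879 CPM). Its log2 fold change was 1.16 ± 0.34 over all 10 and 1.298 ± 0.39 over the other 8. Of 44 clock genes tested over all 10, 25 were higher, and 1 higher (PER2) and 1 lower (rorca) had p under 0.05 (backgrounds 1.16% and 1.71%). Of 43 over the other 8, 2 were higher and 3 lower at that p (backgrounds 5.16% and 3.8%). The clock repressor gene BHLHE40 was lower by −0.69 ± 0.23 over the other 8. The sources used here give no sampling time. The shear-responsive factor gene klf2b stood at 4.31, 14.2, 8.77, 10.1 and 7.60 CPM in tert+/-, against 3.83, 4.87, 4.73, 6.07 and 4.42 CPM in wild type (1.07 ± 0.24 over the other 8). In tert+/- replicates 2 to 5 each value was above every wild type.

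Of 60 genes of insulin, growth hormone and IGF signalling, 3 were higher and 6 lower at p under 0.05 over the other 8 (backgrounds 5.16% and 3.8%), with a median of −0.07. SOCS2, a growth hormone target that dampens the same receptor, stood at 0.994, 1.13, 2.06, 2.08 and 1.57 CPM in tert+/- replicates 1 to 5, against 2.79, 5.36, 5.22, 5.83 and 0.707 CPM in wild type replicates 1 to 5. For SOCS2 the log2 fold change was −1.35 ± 0.48 over all 10 and −1.49 ± 0.31 over the other 8. The groups overlapped through wild type replicate 5 alone. The growth hormone receptor gene ghrb, igf2a and akt1, chosen here after their values were seen, were lower by −1.098, −0.76 and −0.57 over the other 8, whereas the insulin receptor substrate gene IRS2 (ENSDARG00000075282) was higher by 1.22 ± 0.40. IRS2 was highest in tert+/- replicate 2 (26.7 CPM), and its groups overlapped (6.54 to 26.7 CPM in tert+/- and 3.82 to 10.96 CPM in wild type). TSC1 (ENSDARG00000026048), an inhibitor of the growth kinase mTOR, was lower by −0.54 ± 0.18 over the other 8. The stress-inducible sestrin gene sesn4, of a family that restrains mTOR, stood at 15.1, 12.5, 13.3, 14.6 and 11.7 CPM in tert+/-, against 18.1, 23.9, 22.7, 27.25 and 12.8 CPM in wild type. Its log2 fold change was −0.64 ± 0.21 over all 10 and −0.81 ± 0.16 over the other 8.

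Genes of atrophy and autophagy leaned to lower values. Of 66 tested, 46 were lower over the other 8 (background 49.6%), 5 at p under 0.05 (background 3.8%) and none higher at that p, with a median of −0.12. Over all 10 the counts were 48 (background 49.8%), 2 (background 1.71%) and 0 (background 1.16%), also with a median of −0.12. Without wild type replicate 1 the medians were −0.08 and −0.06. ATG2A, which moves lipid into growing autophagosomes, stood at 1.59, 1.67, 1.89, 1.68 and 2.02 CPM in tert+/- replicates 1 to 5, against 2.52, 3.51, 4.37, 3.14 and 4.51 CPM in wild type replicates 1 to 5. No tert+/- library reached a wild type, and the log2 fold change was −1.02 ± 0.27 over all 10 and −0.89 ± 0.22 over the other 8. The glucocorticoid target gene KLF15, which promotes amino acid breakdown in mammalian muscle, was lower over the other 8 (2.29, 4.17, 3.29 and 4.81 CPM in tert+/- replicates 2 to 5, against 5.49, 7.21, 6.23 and 6.46 CPM in wild type replicates 1 to 4, −0.79 ± 0.24). The autophagy kinase gene ulk1a was lower too (3.10 to 3.98 CPM in tert+/- and 4.99 to 9.90 CPM in wild type, −1.06 ± 0.33), and tert+/- replicate 1 held 13.8 CPM, above all others. The remaining members at p under 0.05, BNIP3 and ATG101, were lower by −0.61 and −0.42. With library totals alone as the scale over all 10, the median of this list was 0.18, below a median of 0.29 for all genes.

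Fibre genes leaned to lower values, by more over all 10 than over the other 8, where the medians rested on single libraries. Fast muscle fibre genes were lower in 31 of 42 tested over the other 8 (median −0.09, and 0.02 without wild type replicate 4, 1 at p under 0.05, background 3.8%). Over all 10, 39 of 42 were lower (median −0.25, 1 at p under 0.05, background 1.71%). There, tert+/- replicate 1 held the lowest share of fast fibre counts, 30.8%, and without that library the median was −0.06. Slow fibre genes were lower in 21 of 36 over the other 8 (median −0.13, and 0.02 without wild type replicate 2), and 4 of them had p under 0.05 there, all lower (background 3.8%). Over all 10, 26 of 37 were lower, with a median of −0.31 that was −0.19 without tert+/- replicate 1. Slow fibres are oxidative, lie mainly beneath the skin of the trunk in fish and use their own myosins. The slow myosin gene myh7bb stood at 60.8, 24.6, 27.25, 18.4 and 22.3 CPM in tert+/- replicates 1 to 5, against 79.9, 51.0, 47.1, 37.1 and 7.95 CPM in wild type replicates 1 to 5. Over the other 8 the groups did not overlap (−1.19 ± 0.22), and over all 10 the libraries with testis transcripts lay at the opposite ends (−0.54 ± 0.56). The paralog myh7ba was lower by −1.61 ± 0.61 over the other 8 with a wide overlap (9.75 to 34.4 CPM in tert+/- and 19.8 to 128 CPM in wild type), and by −1.01 without wild type replicate 1. MYH6 (ENSDARG00000079564), an atrial-type myosin by its mammalian name, was lower by −0.93 ± 0.37. Reads can be split between these closely related myosins, so that the share of each is uncertain. MYBPC1, the slow myosin-binding protein gene and the last of the 4, was lower by −0.97.

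The ubiquitin ligase adaptor gene asb2a.2, whose mammalian counterpart marks fibre proteins for breakdown, stood at 6.56, 7.08, 13.8, 8.18 and 14.7 CPM in tert+/- replicates 1 to 5, against 79.3, 16.3, 30.6, 15.9 and 20.0 CPM in wild type replicates 1 to 5. The groups did not overlap, and the log2 fold change was −1.69 ± 0.52 over all 10 and −1.65 ± 0.51 over the other 8. Without wild type replicate 1, the highest library, these were −1.04 and −0.95. The calmodulin gene calm3b was higher by a small amount, with 78.4 to 112 CPM in tert+/- and 60.9 to 73.8 CPM in wild type (0.43 ± 0.19 over all 10, 0.38 ± 0.12 over the other 8). Its highest values were in tert+/- replicate 1 (next 84.9 CPM) and wild type replicate 5 (next 64.0 CPM), the libraries with most testis transcripts. Of 18 genes of the neuromuscular junction, 2 were lower at p under 0.05 over the other 8 (background 3.8%). These were the receptor kinase gene musk (−0.57 ± 0.19) and DOK7, its activator (−0.52), and the groups of both overlapped. Over all 10, 12 of 18 members of this list were lower, 0 at p under 0.05 (background 1.71%). Their median was −0.34, and −0.10 without tert+/- replicate 1.

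Genes of the fibroblast and tenocyte list were mostly lower. Without the libraries over 50 CPM of ddx4, 48 of 54 fibroblast and tenocyte genes were lower, 9 at p under 0.05 (against a background of 3.8%) and 6 with no overlap (against 2.38%), and none was higher at that p. Over all 10, 47 of 54 were lower, 5 of them at p under 0.05 (background 1.71%), and the median was −0.27, against −0.25 over the other 8. PRRX1 (ENSDARG00000042027), a homeobox gene of limb and fin mesenchyme, stood at 1.69, 0.923, 0.559, 1.04 and 1.03 CPM in tert+/- replicates 1 to 5, against 1.86, 2.90, 3.03, 1.97 and 1.41 CPM in wild type replicates 1 to 5. Its log2 fold change was −1.09 ± 0.35 over all 10 and −1.44 ± 0.28 over the other 8. The tendon factor gene MKX (ENSDARG00000075450) stood at 3.21, 1.101, 1.03, 1.56 and 1.48 CPM in tert+/-, against 2.105, 2.74, 1.83, 3.47 and 2.47 CPM in wild type. Only tert+/- replicate 1 was high among the tert+/- libraries, and the log2 fold change was −0.96 ± 0.26 over the other 8. PDGFRA, the receptor that marks muscle fibro-adipogenic cells, stood at 11.3 to 13.5 CPM in tert+/- replicates 2 to 5 and at 16.7 to 21.4 CPM in wild type replicates 1 to 4 (−0.56 ± 0.16). The mesenchymal factor gene twist1b stood at 1.26, 1.64, 1.63, 1.24 and 1.67 CPM in tert+/-, against 3.73, 2.68, 2.09, 2.36 and 1.94 CPM in wild type, with no overlap over all 10 (−0.79 ± 0.25). Over the other 8 its log2 fold change was −0.882 to −0.631 with each library left out in turn. A second PRRX1 gene, SCX, twist2, twist1a and FMOD made up the 9, with log2 fold changes of −0.47 to −1.20. Without tert+/- replicate 2, whose summed fibroblast level of 12140 CPM was the highest of the 10 libraries, the list's median over the other 8 was −0.55, and without tert+/- replicate 3 it was −0.15. Without the libraries over 1 CPM of ddx4, 36 of 54 were lower, 5 at p under 0.05 (background 4.22%), and with library totals alone over all 10, 32 of 54 were lower, with a median of −0.05 where all genes had 0.29.

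Lower levels were also seen for ZIC1 and BOC and for most of the bone and cartilage list. ZIC1, a factor of the dorsal somite in fish, stood at 4.04, 5.98, 5.76, 6.997 and 9.04 CPM in tert+/- replicates 1 to 5, against 14.4, 10.3, 15.2, 17.0 and 6.98 CPM in wild type replicates 1 to 5. The groups met only through wild type replicate 5, and the log2 fold change was −1.01 ± 0.35 over all 10 and −1.02 ± 0.20 over the other 8. BOC, a Hedgehog co-receptor that also promotes myoblast differentiation, had the same form (6.23, 7.80, 7.87, 6.50 and 10.1 CPM in tert+/-, against 16.4, 15.4, 13.2, 12.3 and 5.12 CPM in wild type, −0.81 ± 0.16 over the other 8). Of 29 bone and cartilage genes, 22 were lower over the other 8, 8 at p under 0.05 (background 3.8%), and 1, ALPL, was higher at that p (background 5.16%), with a median of −0.43. Over all 10 the values were 23 of 31, 5 (background 1.71%), 1 (background 1.16%) and −0.49. Without wild type replicate 2 the medians were −0.205 and −0.30. The cartilage matrix gene MATN1 varied most, at 0.232, 0.804, 0.430, 0.247 and 0.321 CPM in tert+/- and 0.380, 7.67, 1.96, 2.15 and 0.442 CPM in wild type. Wild type replicates 2, 3 and 4 carried that difference (−2.75 ± 0.74 over the other 8, and −1.73 without wild type replicate 2), and the cartilage collagen genes COL2A1 (ENSDARG00000069093) and COL9A1 had −1.90 and −1.95 in the same set. The mineralization gene ENTPD5 was lower by −1.33 ± 0.44 and the osteocyte Wnt inhibitor gene SOST by −0.59 ± 0.20. How much skeletal tissue each dissection held was not tested. Among the ligands of the BMP family, BMP2 (ENSDARG00000041430) stood at 0.596 to 0.860 CPM in tert+/- and 1.06 to 1.69 CPM in wild type with no overlap, and BMP5 was lower by −1.09 ± 0.34 over the other 8. SMAD7, an inhibitor that TGF-beta and BMP signals induce, was higher by 0.55 ± 0.18.

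Most retinoic acid receptor and cofactor genes were lower by a small amount. Retinoic acid is made from vitamin A and acts through RAR and RXR receptors, whose output is tuned by corepressors and coactivators. In the smaller set, 27 of 30 tested were lower, 5 at p under 0.05 (background 3.8%) and 3 with no overlap (background 2.38%), none was higher at that p, and the median was −0.26. Over all 10, 27 of 31 were lower, 3 of them at p under 0.05 (background 1.71%), and the median was −0.25. With library totals alone over all 10, 15 of 31 were lower and the median was 0.02, where that of all genes was 0.29. The corepressor gene NRIP1 stood at 12.7, 10.8, 8.17, 10.6 and 6.96 CPM in tert+/- replicates 1 to 5, against 17.2, 19.4, 15.5, 25.2 and 6.36 CPM in wild type replicates 1 to 5. Apart from wild type replicate 5 the groups were separate, and the log2 fold change was −0.77 ± 0.30 over all 10 and −1.07 ± 0.20 over the other 8. The orphan receptor genes NR2F2 and NR2F1 (ENSDARG00000052695), which bind the same response elements, were lower by −0.66 ± 0.25 and −0.43 ± 0.16 over the other 8. NR2C2 and NR2F6 (ENSDARG00000003165), the last of the 5, were lower by −0.65 and −0.53, while the receptor genes themselves had p over 0.05 in that set (raraa −0.11, rarab −0.28, RARG −0.09). RXRA (ENSDARG00000035127) had −1.16 over all 10 and −0.77 over the other 8. In retinol and carotenoid metabolism, 31 of 49 were lower over the other 8, with a median of −0.09. At p under 0.05, 4 were lower and 2 higher (backgrounds 3.8% and 5.16%). BCO2 (ENSDARG00000055722), which cleaves carotenoids in mitochondria, led that list, with 2.53, 2.71, 3.81 and 3.98 CPM in tert+/- replicates 2 to 5, against 7.42, 5.82, 6.65 and 6.85 CPM in wild type replicates 1 to 4 (−1.02 ± 0.22), and with 4.77 CPM in tert+/- replicate 1 and 1.502 CPM in wild type replicate 5. Over all 10 the log2 fold change of BCO2 was −0.67.

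Cell cycle genes were higher in both sets, and their levels were highest in the libraries with most testis transcripts. In the smaller set, 84 of 91 tested cell cycle and mitosis genes were higher, 20 at p under 0.05 (background 5.16%) and none lower at that p, with a median of 0.76 that was 0.46 without tert+/- replicate 5. Over all 10, 86 of 94 were higher with a median of 0.58, and none had p under 0.05. That median turned to −0.66 without tert+/- replicate 1 and was 2.14 without wild type replicate 5, so that its direction over all 10 rested on the libraries with testis transcripts. The E2F8 repressor of the cell cycle had a log2 fold change of 1.45 ± 0.34 over the other 8 and 0.98 ± 1.25 over all 10, where tert+/- replicate 1 held 26.6 CPM and wild type replicate 5 held 15.1 CPM. The proliferation marker gene mki67 stood at 34.9, 5.24, 3.91, 3.54 and 8.11 CPM in tert+/- replicates 1 to 5, against 4.42, 2.095, 2.15, 1.79 and 33.2 CPM in wild type replicates 1 to 5. The groups overlapped in both sets, in the smaller set through wild type replicate 1, and KIF23, which is needed for cytokinesis, had the same form (1.4021 ± 0.48 over the other 8). Summed over the list, the other 8 held 208, 177, 181 and 302 CPM in tert+/- replicates 2 to 5 and 235, 135, 126 and 109 CPM in wild type replicates 1 to 4. The testis and germ line list, summed in the same libraries, held 27.5, 21.0, 59.6 and 92.8 CPM in tert+/- and 53.7, 17.1, 33.6 and 21.2 CPM in wild type, so that tert+/- replicates 4 and 5 and wild type replicate 1 still held some. Of 32 members tested there, 28 were higher in tert+/-, with a median of 1.21 that was 0.41 without tert+/- replicate 5, among them the Leydig cell hormone gene insl3 (0, 0.172, 1.41 and 4.94 CPM in tert+/- replicates 2 to 5, against 0.276, 0, 0.0326 and 0 CPM in wild type replicates 1 to 4), SPAG6 and SYCP1. Testis genes could pass the expression filter through the libraries that held testis transcripts, and 42 members were tested over all 10. The filter may therefore partly set the direction of the 32, and how much was not tested. Without the libraries over 1 CPM of ddx4, which leaves 2 tert+/- and 3 wild type libraries, 80 of 86 cell cycle genes were higher, 25 at p under 0.05 (background 4.37%), with a median of 0.84. In that smaller set the testis list was higher in 10 of 16 tested, with a median of 0.32.

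**Figure D3:**
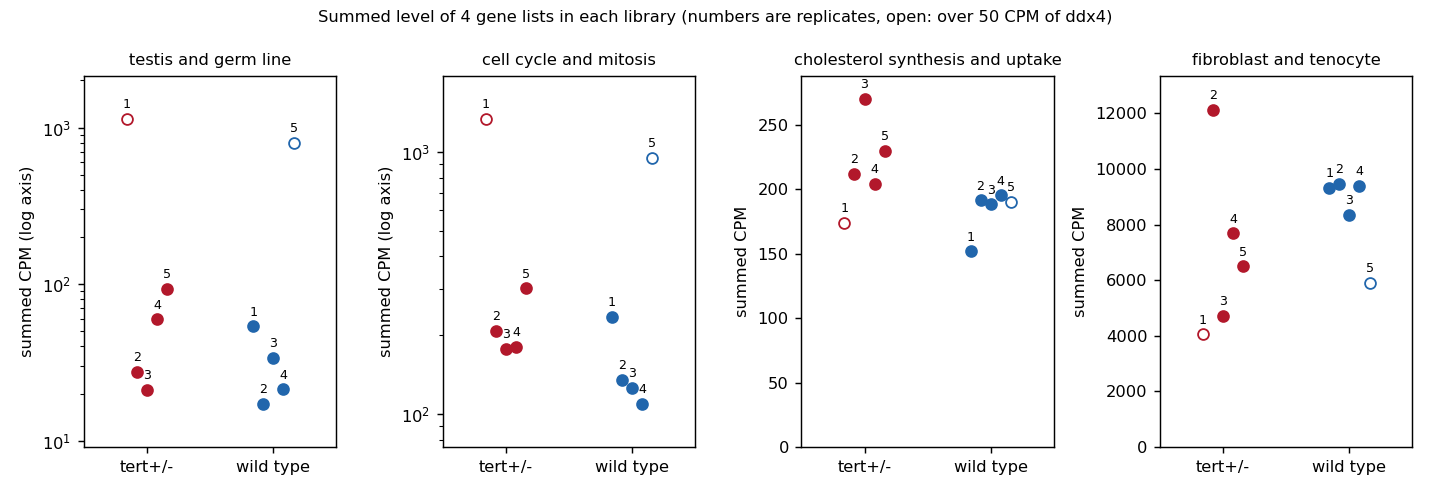
Summed CPM (TMM factors over all libraries) of 4 gene lists in each library, tert+/- in red and wild type in blue, numbered by replicate, with open circles for the libraries over 50 CPM of ddx4. The first pair of panels has a log axis and the second a linear axis from 0. Testis and cell cycle levels are highest in the same 2 libraries, and for cholesterol genes tert+/- replicates 2 to 5 lie above every wild type.

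Medians of genes for protein synthesis, degradation and respiration lay slightly below 0 over all 10 and above 0 over the other 8. Cytosolic ribosomal protein genes were higher in 77 of 84 over the other 8 (median 0.11, and 0.02 without tert+/- replicate 3) and in 15 of 84 over all 10 (median −0.10), and none had p under 0.05 in either set. With library totals alone over all 10, 64 of 84 were higher, with a median of 0.08 where that of all genes was 0.29. Mitochondrial ribosomal protein genes were higher in 70 of 73 over the other 8 (median 0.24, and 0.15 without wild type replicate 1, 6 at p under 0.05, background 5.16%) and in 32 of 73 over all 10 (median −0.03). MRPL13 led them, with 12.5, 11.9, 12.3 and 16.6 CPM in tert+/- replicates 2 to 5, against 8.31, 9.77, 7.76 and 7.66 CPM in wild type replicates 1 to 4, and with 5.00 CPM in tert+/- replicate 1 (0.68 ± 0.19 over the other 8). Genes of respiratory complex I were higher in 38 of 45 over the other 8 (median 0.15) and 18 of 45 over all 10 (median −0.04). The proteasome list had 40 of 47 and 18 of 47 higher in the same order (medians 0.13 and −0.03). At p under 0.05 there was at most 1 gene in the complex I and proteasome lists in either set. The sides over all 10 rested on single libraries. Without tert+/- replicate 1 the medians of complex I, mitochondrial ribosomal and proteasome genes were 0.14, 0.16 and 0.07. That of cytosolic ribosomal protein genes was 0.06 without wild type replicate 1. Without the libraries over 1 CPM of ddx4 the medians of these lists were 0.11, 0.08, 0.01 and 0.32 in the same order.

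Interferon, complement, liver and kidney lists were mostly higher, by amounts that depended on single libraries. Of 56 interferon response genes, 47 were higher over the other 8 (median 0.63, 3 at p under 0.05, background 5.16%). Over all 10, 51 were higher (median 0.50, 2 at that p, background 1.16%), and without tert+/- replicate 3 the medians were 0.15 and 0.14. The antiviral nuclease gene isg20 stood at 8.35, 8.60, 10.7, 14.6 and 16.1 CPM in tert+/- replicates 1 to 5, against 7.04, 6.75, 5.64, 9.39 and 9.98 CPM in wild type replicates 1 to 5, and the groups overlapped. The immunoproteasome gene PSMB10 did not overlap over all 10, with 3.37 to 5.76 CPM in tert+/- and 2.35 to 3.36 CPM in wild type (0.60 ± 0.22). Complement, coagulation and acute phase genes were higher in 42 of 50 over the other 8 (median 0.68, 3 at p under 0.05, background 5.16%) and kidney and interrenal genes in 26 of 30 (median 0.91, 6 at p under 0.05, background 5.16%). These medians were 0.17 without tert+/- replicate 4 for complement and 0.33 without tert+/- replicate 3 for kidney. Over all 10, 26 of 35 kidney genes were higher (median 0.51, and 0.22 without tert+/- replicate 3). Of 40 kidney genes matched, 30 passed the expression filter over the other 8 and 35 over all 10. Members at low levels can pass it through the libraries where they are high, so the filter may partly set their direction. The lymphocyte list was not mostly higher, with 10 of 27 higher over the other 8 (median −0.10). The liver list, at 49 tested, had 37 higher with 2 higher and 1 lower at p under 0.05 (backgrounds 5.16% and 3.8%), and a median of 0.59, which was −0.007 without tert+/- replicate 4. Over all 10, 32 of 50 liver genes were higher, with a median of 0.14. Leaving out tert+/- replicate 4 from all 10 brought the complement list's median of 0.29 to −0.12. Most members of these lists were at a few CPM, for instance the amino acid enzyme gene AGXT (0.662 to 6.19 CPM in tert+/-, 0.449 to 4.51 CPM in wild type). The urea cycle gene CPS1 went the other way (1.06 to 5.36 CPM in tert+/- and 1.06 to 27.08 CPM in wild type), with wild type replicate 1 at the top, and its log2 fold change of −1.98 over the other 8 was −0.77 without it. The tubule receptor gene LRP2 was highest in wild type replicate 5 (6.27 CPM) and tert+/- replicate 3 (5.37 CPM). How much of other organs each dissection held was not tested.

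**Figure D4:**
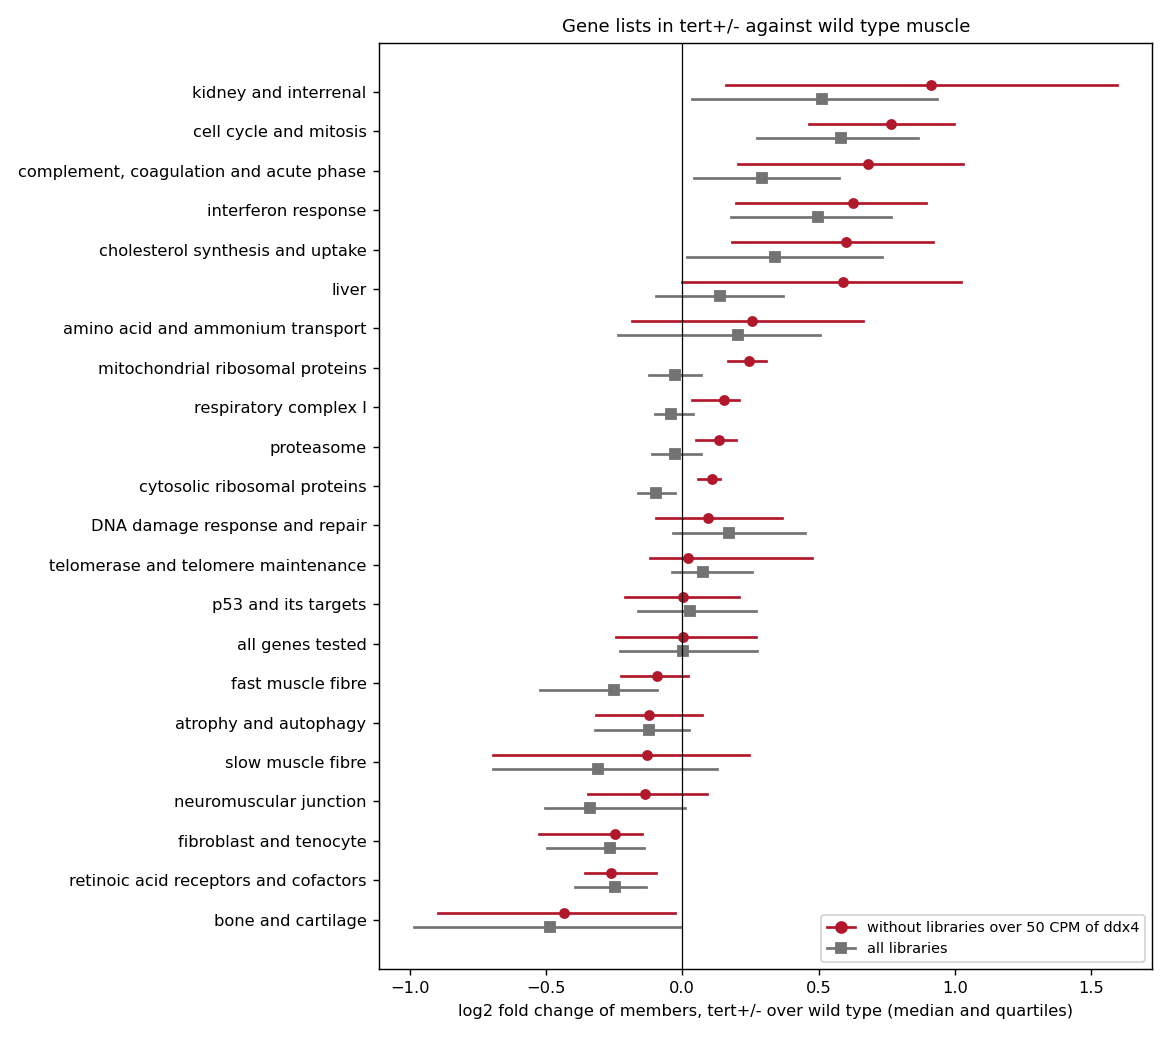
Median log2 fold change of tert+/- over wild type (points) and quartiles (lines) of the members of 21 gene lists and of all tested genes, without the libraries over 50 CPM of ddx4 (red circles) and with all libraries (grey squares). Cholesterol and cell cycle lists lie to the right in both sets, and fibroblast, retinoic acid receptor and bone lists to the left in both. With all libraries, the cell cycle median turned to −0.66 without tert+/- replicate 1. Medians of ribosomal, complex I and proteasome lists lie on opposite sides of 0 in the 2 sets, and slightly below 0 with all libraries.

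Lists on genome upkeep and stress did not share 1 direction. Beside their counts over the other 8, 5.16% of all genes were higher and 3.8% lower at p under 0.05. Genes of p53 and its targets had a median of 0.00 over the other 8 and 0.03 over all 10, with 20 of 40 and 21 of 40 higher, and 2 higher and 4 lower at p under 0.05 over the other 8. DNA damage response and repair genes were higher in 44 of 66 over the other 8 (median 0.09, 3 higher and 1 lower at p under 0.05) and 51 of 69 over all 10 (median 0.17, and −0.32 without tert+/- replicate 1). Genes of endoplasmic reticulum stress were higher in 29 of 36 over the other 8 (median 0.15, 3 higher and 1 lower at p under 0.05) and 24 of 36 over all 10 (median 0.08). Genes of senescence and secreted factors were higher in 20 of 43 over the other 8, with 3 higher at p under 0.05, and a median of −0.03. Heat shock chaperone genes were lower in 30 of 45 there (median −0.13, and 0.01 without wild type replicate 3, 1 higher and 3 lower at p under 0.05). Over all 10, 21 of 44 senescence genes were higher (median −0.02) and 29 of 47 chaperone genes were lower (median −0.14).

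DESeq2, applied to the other 8, called 38 of 17894 genes with an adjusted p under 0.05 (0.212%), 23 higher and 15 lower. At 37 of them the groups did not overlap, against 2.53% (higher) and 2.38% (lower) of all genes tested by edgeR. The calls were made from the same values, so this is not separate evidence. The 10 of smallest p with a symbol were LIPG, myh7bb, cmpk, ldlrb, ARPC5, epha2a, calm3b, NRIP1, BOC and PRRX1. The ephrin receptor gene epha2a stood at 6.82, 4.99, 5.61 and 4.65 CPM in tert+/- replicates 2 to 5, against 2.52, 2.65, 3.03 and 3.02 CPM in wild type replicates 1 to 4, and ARPC5 (ENSDARG00000039142), a subunit of the complex that branches actin filaments, at 11.55 to 12.8 and 6.96 to 8.42 CPM in the same order. Their log2 fold changes by edgeR were 0.99 ± 0.18 and 0.67 ± 0.13. The count depended on single libraries, with 10 genes called without wild type replicate 3 and 322 without wild type replicate 1, and E2F8, SLC43A1, SOCS2 and tigara were among the 38.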

How the data were processed

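The table used here is the matrix of read counts per gene that the authors deposited, whole numbers with no normalization, for 13 libraries and 32105 genes. The submitters' notes on processing name bcl2fastq 1.8.4, STAR 2.4.1d, featureCounts 1.4.6-p4 and the build GRCz10. The study's methods text names kallisto for expression, and which of these tools made the deposited counts was taken from the submitters' notes. The library kit does not mark strand and no source used here names the annotation release, so reads of overlapping, antisense and near-identical genes cannot be told apart. The deposited RPKM table was not used here. Symbols were found for 26269 identifiers (81.8%), and symbols that several share are given with their identifier where it matters. No sequence is printed and no motif was searched, because no sequence table was used here.

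Levels are CPM with TMM factors. Genes were tested with edgeR 4.0.16 (R 4.3.3) by the quasi-likelihood test, with 1 mean per genotype, the default expression filter and Benjamini-Hochberg adjustment over all genes tested, and called at an adjusted p under 0.05. The 2 sets were fitted separately. The SE comes from the fit. Measures of the libraries were compared with two-sided exact permutation tests. The 53 gene lists were described by counts and medians without a test, and members were found by symbol, with paralog endings a, b and l removed and wrong matches dropped. The members and lists were chosen with earlier results of these data known. Named genes are TERT, per set and direction the 12 of smallest p with a symbol, no overlap, and 1 CPM or more on average in the higher group, the 3 members per list of smallest p without the libraries over 50 CPM of ddx4 with the same level, and 10 called by an alternative. Other genes were picked with their values in view. Some genes that the rule names are not reported here. The other settings tried were DESeq2 1.42.0, limma-voom (limma 3.58.1), robust dispersion, other scalings and filters, the genotypes compared without tert-/-, a surrogate variable added to the fit (sva 3.50.0) and dropping each library in turn. The set without libraries over 1 CPM of ddx4 and DESeq2 with each library left out were chosen after seeing the data. The statistics were also run on simulated counts with less spread between libraries than these data, so that run does not show how they behave here.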

Additional observations from a re-analysis of the deposited data

Results flagged for a closer look

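A library was singled out where its gap to the nearest other library of its genotype, divided by the range, exceeded Dixon's 95% critical value in a group of 4 or 5. Of 304 groups looked at, 49 did so (16.1%). The critical value assumes normally spread values. Most groups here were CPM of genes picked for the text, each counted with and without the libraries over 50 CPM of ddx4. The share therefore has no chance rate to be set against. Values are CPM unless they are named as percentages or totals, and the causes were not tested. CPM given without the libraries over 50 CPM of ddx4 use the TMM factors of that smaller set, and so differ from the levels given above. The library tert+/- replicate 1 lay above the other tert+/- libraries over all 10 libraries for myh7bb (60.8), calm3b (112), ulk1a (13.8), RUVBL2 (34.4), E2F8 (26.6), KIF23 (25.8), mki67 (34.9), MKX (3.21), SPAG6 (26.7), SYCP1 (133), the share of counts from mitochondrially encoded genes (18.3%) and the share of counts from testis and germ line genes (0.231%). It lay below them for ARPC5 (8.12) and the share of counts from fast muscle fibre genes (30.8%). The library tert+/- replicate 2 lay above the other tert+/- libraries over all 10 libraries for ldlrb (4.34), PFKFB4 (36.8) and CPS1 (5.36). The library tert+/- replicate 3 lay above the other tert+/- libraries over all 10 libraries for LRP2 (5.37). Without the libraries over 50 CPM of ddx4, replicate 3 was also above the rest for RHCG (4.11) and SLC43A2 (5.6). The library tert+/- replicate 4 lay below the other tert+/- libraries without the libraries over 50 CPM of ddx4 for twist1b (1.03). The library tert+/- replicate 5 lay above the other tert+/- libraries without the libraries over 50 CPM of ddx4 for MRPL13 (14.3). Wild type replicate 1 lay above the other wild type libraries over all 10 libraries for asb2a.2 (79.3) and CPS1 (27.08). Wild type replicate 1 lay above the other wild type libraries without the libraries over 50 CPM of ddx4 for mki67 (3.55), CPS1 (21.8), insl3 (0.222) and the share of counts from cytosolic ribosomal protein genes (6.14%). Wild type replicate 2 lay above the other wild type libraries over all 10 libraries for MATN1 (7.67). Wild type replicate 2 lay above the other wild type libraries without the libraries over 50 CPM of ddx4 for MRPL13 (8.33). Wild type replicate 5 lay above the other wild type libraries over all 10 libraries for cmpk (21.9), FASN (19.8), calm3b (73.8), RUVBL2 (17.1), NHP2 (16.9), E2F8 (15.1), KIF23 (11.7), mki67 (33.2), AGXT (4.51), LRP2 (6.27), insl3 (27.3), SPAG6 (15.9), SYCP1 (46.2) and the share of counts from testis and germ line genes (0.086%). Wild type replicate 5 lay below the other wild type libraries over all 10 libraries for tigara (2.83), BCO2 (1.5), TSC1 (6.72), BHLHE40 (30.6) and the total count (10.6 M counts).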

How the results depend on the processing

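The count of genes called was 0 in both sets under every alternative run except DESeq2 on the smaller set (38), and with edgeR also at an adjusted p under 0.1 and without each library in turn. Genes with an unadjusted p under 0.05 numbered 557 over all 10 libraries. They numbered 2826 with limma-voom with sample quality weights, 1206 with 1 surrogate variable, 1610 without the libraries over 50 CPM of ddx4, and 375 to 1188 when each library was left out in turn, highest without wild type replicate 5. Without the libraries over 50 CPM of ddx4 they numbered 1610, 3048 with limma-voom with sample quality weights, and 1056 (without tert+/- replicate 4) to 2474 (without wild type replicate 1) in turn. With library totals alone over all 10, the median log2 fold change of all genes was 0.29 and 87.5% of the genes at p under 0.05 were higher, against 40.4% with TMM factors. Without the libraries over 50 CPM of ddx4 the shares were 69.6% and 57.6%. The 38 calls by DESeq2 became 10 without wild type replicate 3, 15 without wild type replicate 2, 22 and 26 without tert+/- replicates 4 and 3, 36 without wild type replicate 4, 65 and 169 without tert+/- replicates 5 and 2, and 322 without wild type replicate 1. The log2 fold change of TERT, near 0, changed sign. Over all 10 it lay at −0.069 to 0.208 with each library left out and at −0.001 without the libraries over 50 CPM of ddx4. In the smaller set it lay at −0.108 to 0.229 with each library left out, 0.005 with DESeq2, 0.215 with limma-voom, 0.005 with DESeq2 size factors in edgeR, 0.023 with library totals alone, 0.014 with tert+/- and wild type alone, 0.053 with 1 surrogate variable and 0.204 without the libraries over 1 CPM of ddx4. Of the genes recomputed under each alternative, no other changed sign. Apart from TERT, most of these genes were chosen for small p in these libraries, so the choice partly set this. Genes named for the smaller set alone, such as E2F8 and mki67, were not recomputed over all 10. Without wild type replicate 5, the list medians over all 10 were 0.58 for cholesterol and 2.14 for cell cycle genes, and 4.24 for testis genes. Without tert+/- replicate 1 those of cell cycle and testis genes were −0.66 and −1.86. Of the 9 library measures, 0 had p under 0.05 in any set. No paired analysis was possible because the labels give each fish a number of its own, and replicate numbers here follow the order of the sample records. The libraries with testis transcripts were also the shallowest, which limits what those 2 show.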
